A study of Caenorhabditis elegans with 4 samples.

Results

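Chromosome II of Caenorhabditis elegans carried 1959 of the 13091 regions called as bound by HLH-1::GFP in embryos, and these peaks are described here. They are all the entries for chromosome II in 1 list of peaks, on coordinates of the WormBase build WS180, and no measured value was used to choose them. The study assayed hermaphrodite embryos of strain OP64 by chromatin immunoprecipitation and sequencing (ChIP-seq), with 2 ChIP DNA samples, precipitated with a goat antibody to GFP, and 2 input DNA samples, the chromatin before precipitation. The strain has the allele unc-119(ed3) on chromosome III and the integrated transgene wgIs64, made of unc-119(+) and of hlh-1 fused to TY1::EGFP::3xFLAG, and both kinds of sample share these. Worms were grown at 20 °C. The transgene was brought in by bombardment, so the tagged protein came from added copies of hlh-1. Whole embryos were used, in which muscle cells are mixed with all other tissues.

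HLH-1 is the worm member of the MyoD family, the basic helix-loop-helix transcription factors that promote muscle fate in animals from worms to vertebrates. Such factors bind DNA in pairs and contact short DNA elements called E-boxes. In C. elegans HLH-1 acts in the cells that form body wall muscle, and a peak marks a stretch of DNA that was recovered more often with the tagged protein than in input chromatin. The autosomes of the worm have a gene-dense centre flanked by arms that are richer in repeats, which is the background for describing a chromosome in parts.

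The list combines the samples, gives no values per replicate and no read counts, so the spread between replicates and the read depth are both unknown. Each peak has a first base, a last base and a q-value, the false discovery estimate of the authors' peak caller. A small q is called strong here, with a limit of 1e-10. The q-value depends on depth and on the width of a peak and ranks peaks only within this list. Intervals of shares are exact Clopper-Pearson 95% intervals that treat peaks as independent, which neighbouring peaks are not, and cover counting error only. Chromosome II is 1 chromosome against 5, and an exact permutation test over chromosomes could not go below p = 0.167, so differences from the other chromosomes are values without a test.

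Over its whole length chromosome II ranked 4th of the 6 chromosomes in density and in coverage and 3rd in its share of strong peaks. It had 128 peaks per Mb over a span of 15.3 Mb, against 131 per Mb on the other 5 chromosomes together, which ranged from 112.1 on IV to 153 on I. Peaks covered 3.71% of chromosome II, against 3.90% of the others. Strong peaks numbered 396 on chromosome II, or 20.2% of its peaks (interval 18.5 to 22.1%), against a background of 19% on the other chromosomes (interval 18.3 to 19.7%). The single chromosomes spread from 14.4% on V to 24.5% on X, so the share on chromosome II lay within their range.

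Peaks were unevenly distributed along chromosome II, which was divided into 3 equal parts, with few peaks at the left and many in the middle. The left part, bases 1 to 5090552, held 538 peaks, or 106 per Mb. The middle part, to base 10181103, held 772 peaks, or 152 per Mb, and the right part held 649, or 127 per Mb. The middle part thus had 39.4% of the peaks of chromosome II (interval 37.2 to 41.6%), against a background of 36% in the middle parts of the other chromosomes. The left part had 27.5% (interval 25.5 to 29.5%) and the right part 33.1% (interval 31.0 to 35.3%).

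The ends of chromosome II differed from each other, with the right end the denser. Its middle part was 1.43 times as dense as its left part, against ratios from 1.04 on IV to 1.24 on III. Its right part was 1.21 times as dense as its left part, against ratios from 0.785 on IV to 1.06 on III. The difference between the ends was larger in size on IV, where it ran the other way and the left part was 1.27 times as dense as the right. Set against the mean of both outer parts, the middle part was 1.30 times as dense on chromosome II and 1.04 to 1.20 times as dense elsewhere. Among all 18 parts of the 6 chromosomes, the left part of II was the 17th in density, ahead of the right part of IV with 93.4 peaks per Mb.

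**Figure D1:**
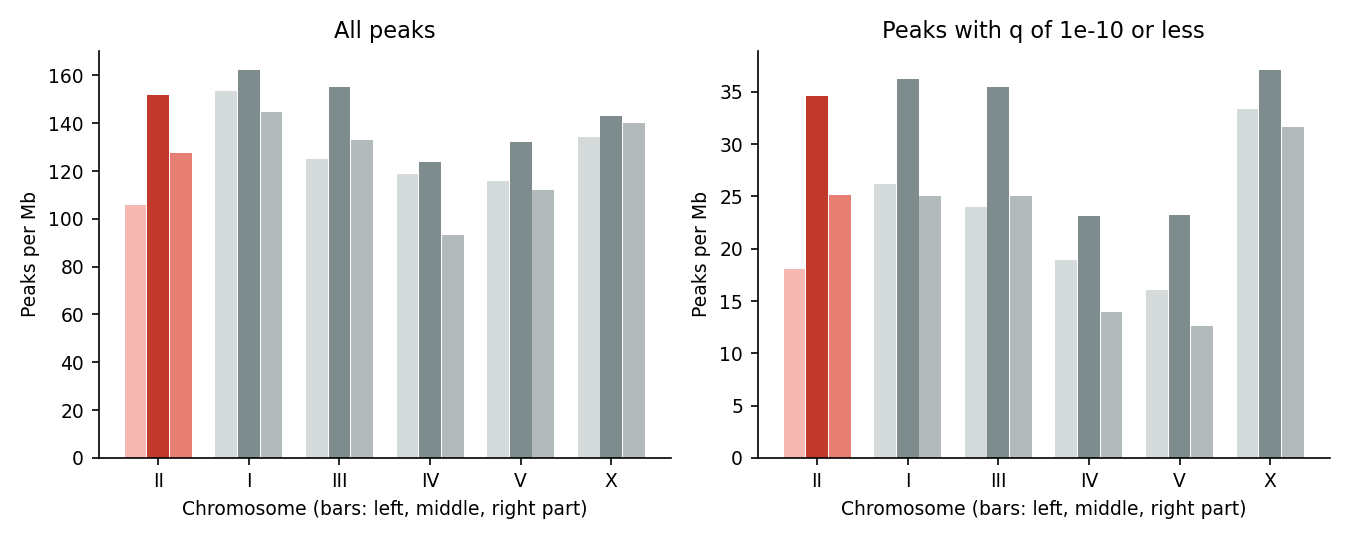
Peaks per Mb (vertical axis) in the left, middle and right part (3 bars, in that order) of chromosome II (red) and of the other 5 chromosomes (grey), for all peaks (left panel) and for strong peaks (right panel). On chromosome II the bars stand at 106, 152 and 127 for all peaks and at 18.1, 34.6 and 25.1 for strong peaks.

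The same order was seen in blocks of 1 Mb. The 5 blocks of the left part held from 85 to 118 peaks, those of the middle part from 133 to 166, and the 5 complete blocks of the right part from 105 to 162. The left and middle blocks of chromosome II therefore did not overlap in number, while the right blocks overlapped with both. On each of the other 5 chromosomes the ranges of left and middle blocks overlapped, for example 112 to 184 and 152 to 184 on I. The fullest block of chromosome II lay from 6 to 7 Mb, with 166 peaks of which 45 were strong. Its emptiest complete block lay from 1 to 2 Mb, with 85 peaks of which 11 were strong. The right part was itself uneven: its block from 11 to 12 Mb held 162 peaks and 42 strong ones, and the next block 105 and 15.

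Strong peaks had the steeper gradient. There were 92 in the left part, 176 in the middle part and 128 in the right part, or 18.1, 34.6 and 25.1 per Mb. The middle part was 1.91 times as dense in strong peaks as the left part, against ratios from 1.11 on X to 1.48 on III. The right part was 1.39 times as dense in them as the left part, against 0.736 on IV to 1.05 on III. On IV the left part was 1.36 times as dense in strong peaks as the right. At a q of 1e-50 or less there were 20 peaks on chromosome II, in number the fewest of the 6 chromosomes. The others had from 23 on IV to 49 on X, together 160 among 11132 peaks. As a share of its peaks V was lower than II, with 24 among 2508 against 20 among 1959. Of the 20 on chromosome II, 4 were in the left part, 12 in the middle part and 4 in the right part. At intermediate q, over 1e-10 and up to 0.001, the parts of chromosome II held 215, 333 and 246 peaks. The weakest peaks, with a q above 0.001, numbered 231, 263 and 275 and were most frequent in the right part. For this class the right part was 1.19 times as dense as the left part, close to the 1.21 of all peaks, and the middle part 1.14 times as dense as the left. Set against the mean of both outer parts, the middle part was 1.04 times as dense in the weakest peaks, within the 0.965 to 1.07 of the other chromosomes. The same ratio was 1.60 for strong peaks, within the 1.14 on X to 1.62 on V.

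As a share of its peaks, the left part had 17.1% strong peaks (interval 14.0 to 20.6%), the middle part 22.8% (interval 19.9 to 25.9%) and the right part 19.7% (interval 16.7 to 23.0%). The intervals of all 3 overlap. Width accompanied this share, since the median peak was 213 bp in the left part, 258 bp in the middle part and 223 bp in the right part. Among peaks of 200 to under 500 bp the strong share was 24.1% in the left part (55 of 228 peaks), 24.9% in the middle part (101 of 406) and 24.4% in the right part (72 of 295). Within this width class the parts of chromosome II thus differed by less than 1 percentage point. The class held 228 of the 396 strong peaks, and the strong shares of the parts were not compared among wider peaks. On the other chromosomes these shares were 21.3%, 23.5% and 19.9%.

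The strongest peaks of chromosome II lay in all 3 parts and most were wide. The first lay in the left part, from 4515402 to 4517750 (2349 bp, q of 5.53e-163), with its nearest neighbour 4834 bp away. The second lay in the middle part from 9059860 to 9062640, was also the widest on the chromosome at 2781 bp, and had a q of 5.53e-156. The next were in the right part from 11633932 to 11636167 (2236 bp, q of 5.04e-135) and in the middle part from 9261082 to 9263445 (2364 bp, q of 3.42e-133). The fifth stood near the left end of the chromosome, from 160595 to 162253 (1659 bp, q of 3.62e-119). The sixth lay in the right part, from 14249255 to 14251953 (2699 bp, q of 2.24e-105).

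The remaining 4 of the 10 strongest included narrower regions, although the 5 widest peaks of the chromosome were all among the 10. Peaks of 1469 bp from 6935476 (q of 5.02e-84) and of 2390 bp from 7808944 (q of 1.06e-78) lay in the middle part. A peak of 783 bp from 2994710 in the left part had a q of 2.88e-78. The tenth, from 6290297 to 6290691 in the middle part, reached a q of 1.93e-67 over only 395 bp and had no other midpoint within 10 kb. The 10 strongest had from 0 to 10 other midpoints within 10 kb, with a median of 6, against a median of 3 for all peaks of chromosome II. Midpoint counts do not allow for width, and 3 was also the median around the 396 strong peaks.

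The gene hlh-1 itself lies on chromosome II and unc-119 on chromosome III, by the RefSeq gene table of build WBcel235. That build is not the one of the peaks, so no gene position was set beside a peak and no peak is assigned to a gene. The strain carries both genes in added copies, and whether these bear on the q of the strongest peak or of any other was not tested.

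Peaks on chromosome II were mostly short. The median width was 233 bp, against 242 bp on the other chromosomes, and the quartiles were 142 and 372 bp, against 147 and 383 bp. Of its 1959 peaks, 929 were from 200 to under 500 bp wide, or 47.4%, the same share as the 47.4% on the other chromosomes. A further 435 were from 100 to under 200 bp, 231 from 500 bp to under 1 kb, and 140 from 50 to under 100 bp. The strong peaks had a median width of 444 bp, the smallest of the 6 chromosomes, where the other medians ran from 454 to 493 bp.

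The extremes of width differed in where they lay. Regions of 1 kb or wider numbered 30, or 1.53% of the peaks of chromosome II, against 1.96% on the other chromosomes. Of these, 7 lay in the left part, 13 in the middle part and 10 in the right part, and 26 of the 30 were strong. The remaining 4 missed the limit for strong, with q from 1.86e-10 to 0.000479. The last of these q belonged to a peak of 1205 bp from 9296598 to 9297802, singled out after its values were seen. Peaks under 50 bp numbered 194, or 9.90% (interval 8.62 to 11.3%), against 9.41% elsewhere, and none of them was strong. They numbered 60 in the left part, 59 in the middle part and 75 in the right part, so their share of all peaks was lowest in the middle part at 7.64%. No strong peak of chromosome II was narrower than 244 bp.

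**Figure D2:**
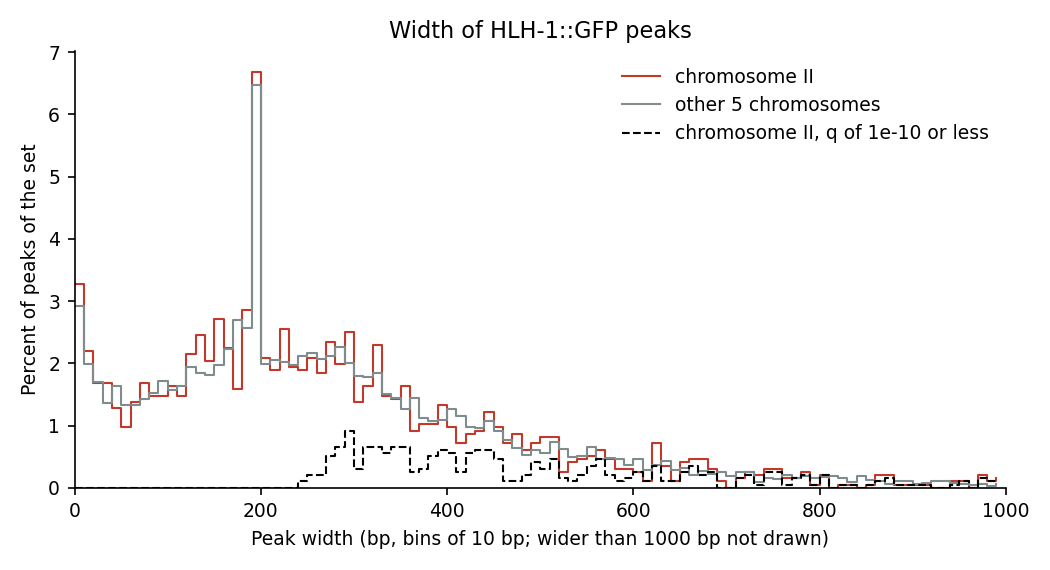
Percent of peaks (vertical axis) by width in bins of 10 bp (horizontal axis) on chromosome II (red) and on the other 5 chromosomes (grey), with the strong peaks of chromosome II as a dashed line. Both sets have a spike in the bin that ends at 200 bp, and the strong peaks begin at 244 bp.

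A single width stood out on chromosome II as it did elsewhere. Exactly 200 bp was the width of 72 peaks, or 3.68%, against 3.45% on the other chromosomes (384 peaks). The 10 widths just below it held 66 peaks together, and the 10 just above held 41. The peaks of exactly 200 bp had a median q of 0.00151 and none was strong. At the lower end, 64 peaks of chromosome II were 10 bp or narrower, or 3.27%, against 2.93% on the other chromosomes. A single base was covered by 7 peaks, or 0.357%, against 0.395% elsewhere, with q from 0.00158 to 0.00950 for those 7.

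Neighbouring peaks on chromosome II were separated by a median of 3686 bp, edge to edge, against 3600 bp on the other chromosomes. The median distance was 4358 bp in the left part, 3168 bp in the middle part and 4190 bp in the right part. Of the peaks on chromosome II, 1004 or 51.3% had another midpoint within 2 kb (interval 49.0 to 53.5%), against a background of 50.5% elsewhere. This share was 47.0% in the left part, 55.7% in the middle part and 49.5% in the right part. The middle parts of the other chromosomes had 49.7 to 55.0%. Peaks with no other midpoint within 10 kb numbered 149, or 7.61%, against 7.31% on the other chromosomes. Of these, 49 were in the left part, 39 in the middle part and 61 in the right part, or 9.11%, 5.05% and 9.40% of the peaks there.

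Pairs of 2 strong neighbours were a minority at every distance, with the smallest share at over 10 kb, on chromosome II as elsewhere. These shares were not set against the share expected from the number of strong peaks. Of 616 pairs of neighbours with midpoints at most 2 kb apart, 36 joined 2 strong peaks and 211 a strong with a weaker one. At distances over 10 kb, 15 of 486 pairs joined 2 strong peaks, or 3.09%, against 5.84% at 2 kb or less. At over 2 to 10 kb it was 45 of 856 pairs, or 5.26%. The other chromosomes had 3.01% at over 10 kb, 3.92% at over 2 to 10 kb and 5.62% at 2 kb or less. Taken among themselves, 19.4% of the strong peaks of chromosome II had another strong midpoint within 2 kb, and so did 19.4% on the other chromosomes.

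By the 2-kb rule used here, runs of 5 or more peaks were few on chromosome II and almost absent from its left part. A run is a series of peaks with each midpoint at most 2 kb from the next. Single peaks numbered 955, pairs 259 and series of 3 or 4 peaks 110, and 19 runs had 5 peaks or more. These 19 runs held 123 peaks, or 6.28%, against a background of 7.55% on the other chromosomes, which spread from 4.65% on IV to 10.05% on V. With joining at 1 kb or at 3 kb this order turned, and the share was larger on chromosome II than on the others together. By the 2-kb rule, chromosome II had 1.24 runs of 5 or more per Mb, against 0.916 on IV to 2.27 on I.

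Of the 19 runs, 2 lay in the left part, 9 in the middle part and 8 in the right part. Only 10 of the 538 peaks of the left part were in them, or 1.86% (interval 0.895 to 3.39%), against 4.18% to 12.4% in the left parts of the other chromosomes. This was the lowest share of the 18 parts, also when distances were measured between edges (4.83%) or peaks under 50 bp were left out (2.09%). It was not the lowest with joining at 3 kb, where 7 parts had a lower share than its 14.9%. Among these was the right part of chromosome II itself, with 13.1%. With joining at 1 kb, none of the peaks of the left part was in such a run, which was so in 10 of the 18 parts. By the 2-kb rule, the middle part of chromosome II had 68 peaks in such runs, or 8.81%, and the right part 45, or 6.93%. Without peaks under 50 bp these shares were 7.99% and 4.01%.

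Peaks in runs had a larger median width and a larger strong share than single peaks on chromosome II, and the part of width in that share was not tested. The 123 peaks in runs of 5 or more had a median width of 343 bp and 33.3% of them were strong (41 peaks, interval 25.1 to 42.4%). The 955 single peaks had a median width of 211 bp and 17.7% were strong (interval 15.3 to 20.3%). Peaks in series of 2 to 4 stood between, with 253 bp and 21.1%. On the other chromosomes the strong share was 25.8% in runs of 5 or more and 15.5% in single peaks. Of the 19 runs on chromosome II, 2 had no strong peak, against 35 of 143 elsewhere.

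**Figure D3:**
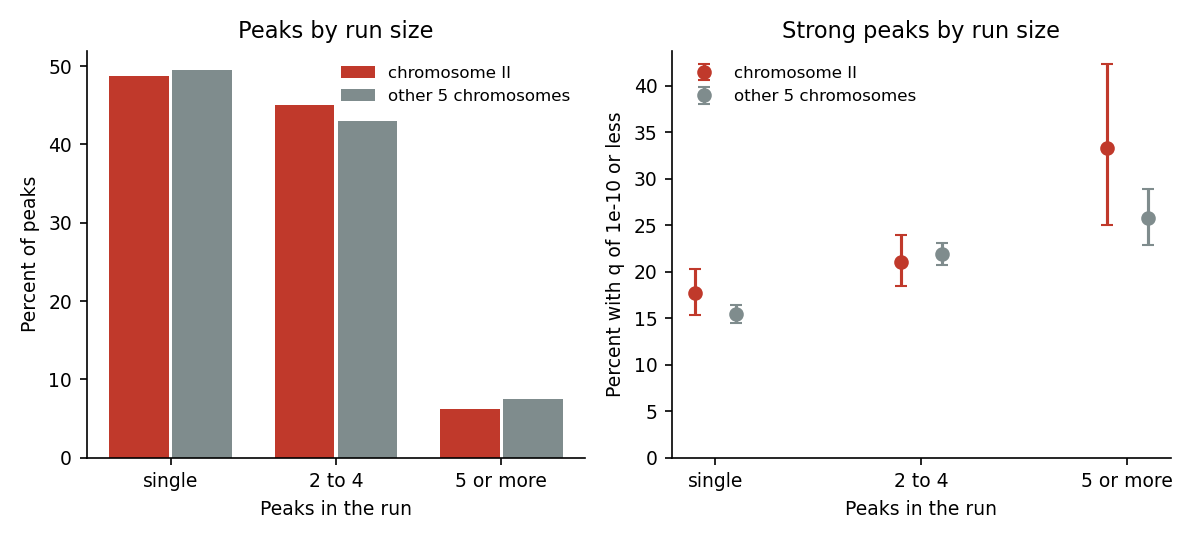
Left panel: percent of peaks (vertical axis) by the number of peaks in their run (horizontal axis) on chromosome II (red) and on the other 5 chromosomes (grey). Right panel: percent of those peaks with a q of 1e-10 or less, with exact 95% intervals of counting; on chromosome II it was 17.7% for single peaks and 33.3% for runs of 5 or more.

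The run with the most peaks lay in the middle part, where 17 peaks followed each other from 6820973 to 6836523, a length of 15.6 kb. They covered 54.6% of that length, 9 of the 17 were strong, none was under 50 bp, and the edges of neighbours were 207 to 1100 bp apart. Its strongest peak, of 669 bp from 6827279, had a q of 1.17e-43 and was 27th on the chromosome, and its widest, of 979 bp, was the last. The approach to the run was bare, with 18294 bp between it and the peak before, while the next peak followed after 1760 bp. Measured between edges, or with joining at 3 kb, the run went on to 6844435 and had 22 peaks, 12 of them strong. With joining at 1 kb it shrank to 9 peaks, 5 of them strong, from 6825713 to 6833126.

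**Figure D4:**
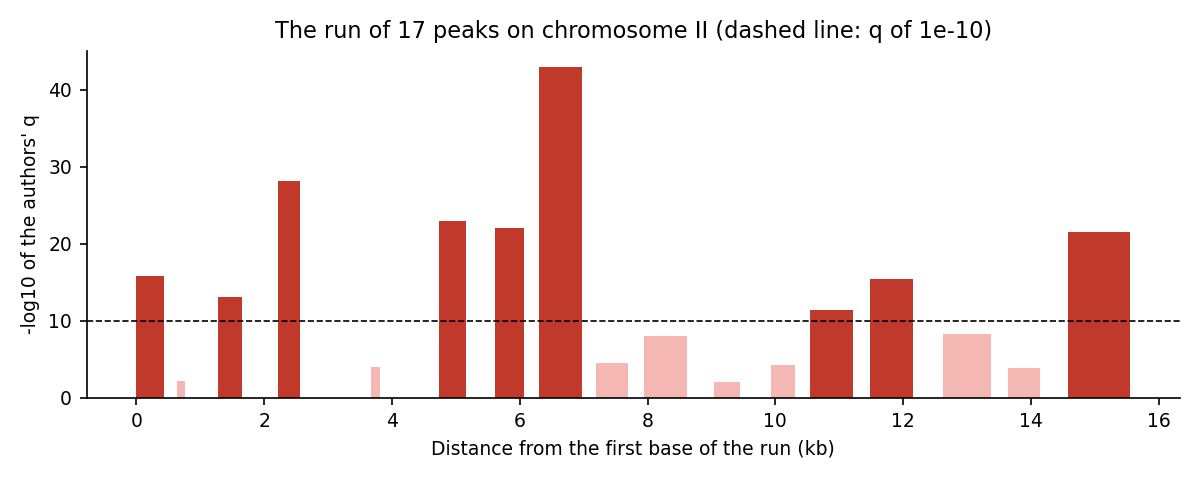
The 17 peaks of the run with the most peaks on chromosome II, drawn to scale by distance from its first base in kb (horizontal axis), with −log10 of the authors' q as height (vertical axis). Dark bars are the 9 strong peaks above the dashed line at a q of 1e-10, and weaker peaks lie among them along the 15.6 kb.

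The other long runs had fewer strong peaks. A run of 9 peaks in the middle part, from 7808133 to 7817019, contained the wide peak of 2390 bp that ranks eighth on the chromosome, and 2 of its 9 peaks were strong, the other with a q of 4.63e-35. A run of 8 peaks in the right part, from 10546563 to 10556069, had 3 strong peaks, the best with a q of 3.62e-18. Runs of 7 peaks lay from 8894106 to 8901316 and from 5460883 to 5466417 in the middle part, each with 2 strong peaks. A run of 6 peaks from 9258045 to 9265704 held the fourth strongest peak of the chromosome, had 4 strong peaks and was 68.1% covered by peaks, the highest coverage of the 19 runs. The share of strong peaks was thus higher in this run of 6 than in the run of 17.

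Empty stretches were concentrated in the left part. Chromosome II had 13 stretches of 50 kb or more without a peak, and 9 of them were in the left part, 2 in the middle part and 2 in the right part. On the other chromosomes 36 of 109 were in the left parts. Together they made up 864 kb, or 5.65% of the chromosome, against 8.70% of the other chromosomes. That is 8.51 such stretches per 10 Mb, between 7.26 on III and 20.6 on IV. With a minimum of 30 kb, chromosome II had 86 stretches, 39 of them in the left part, 26 in the middle part and 21 in the right part. On the other chromosomes 145 of 417 stretches of this minimum were in the left parts. At this minimum the direction against the other chromosomes turned, with 56.3 stretches per 10 Mb on chromosome II and 49.1 on the others, and with 23.7% of the chromosome against 22.2%.

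The longest stretch without a peak ran for 102 kb from 1928493 to 2030614, between a peak of 36 bp and one of 200 bp. The next 3 were also in the left part, of 81.1 kb from 3815736, 74.5 kb from 1601792 and 73.3 kb from 3129606. The fifth, of 67.7 kb, was in the right part from 13089307 to 13156972. The stretch from 1601792 was separated from another of 64.2 kb, from 1537637, by a single peak of 5 bp with a q of 0.000935. Without peaks under 50 bp these became 1 stretch of 139 kb from 1537637 to 1676322, now the longest of the chromosome, and the stretch of 102 kb became 121 kb, from 1909626 to 2030614. Of the 10 peaks at the edges of the 5 longest stretches, 4 had a q above 0.001, or 40%, near the 39.3% of all peaks of chromosome II. The only strong one of the 10 was a region of 523 bp after the stretch from 3815736 (q of 7.79e-18), set beside a strong share of 20.2% over all peaks.

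**Figure D5:**
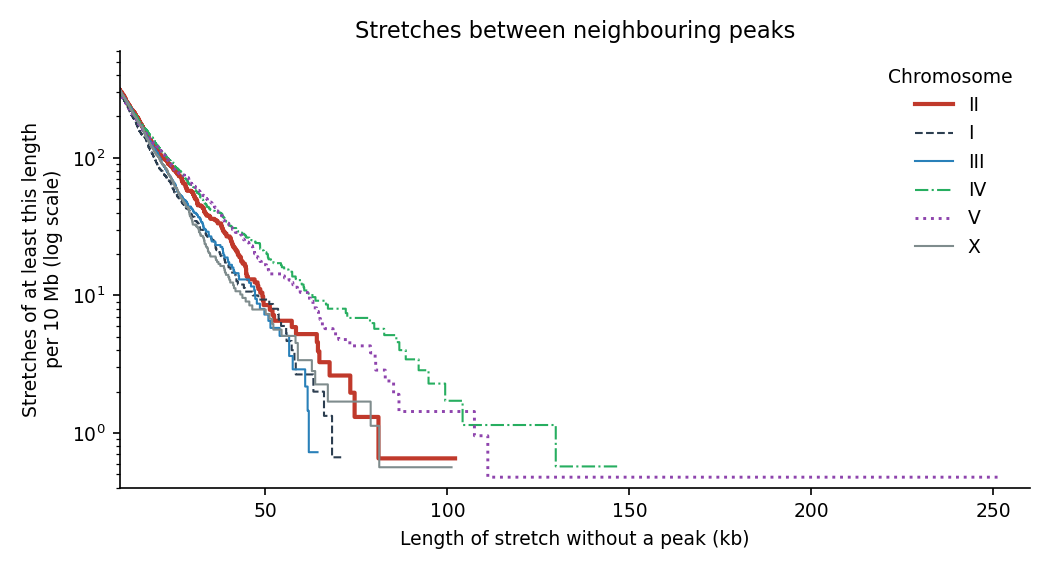
Number of stretches without a peak per 10 Mb (vertical axis, log scale) that reach at least the length on the horizontal axis (kb), for chromosome II (red, thick) and the other 5 chromosomes. Chromosome II ends at 102 kb and at 50 kb lies at 8.51 per 10 Mb, below I, IV and V, of which IV and V reach 147 and 251 kb.

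Stretches without a strong peak were longer. The longest on chromosome II ran for 322 kb from 1816423 to 2138449 in the left part and held 19 weaker peaks. The second ran for 304 kb from 12355834 to 12659677 in the right part, with 22 weaker peaks, and the third for 249 kb from 2999147 to 3248087 in the left part, with 23. The longest such stretches of the other chromosomes ran from 254 kb on X to 668 kb on V.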

How the data were processed

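The authors deposited 1 combined list of peaks for the 2 ChIP DNA and 2 input DNA samples. Peaks were called with PeakSeq on WormBase WS180, per the file headers and the source field, and the deposited values are q-values, with first and last bases. The aligner, read filters, scaling to input and PeakSeq version are not given in the sources. Replicates are taken as called together. The largest q was 0.00994, so weaker regions are outside the list, and neighbours were at least 200 bp apart.

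All measures come from code in Python 3.11.15, using pandas 2.3.3, numpy 2.4.6, matplotlib 3.10.9 and, for intervals, scipy 1.17.1. The code was tested on simulated lists. The span of a chromosome was counted from base 1 to where its final peak ended and cut into 3 equal parts, and a peak was placed by its midpoint. Named were the 10 strongest and 5 widest peaks, the 5 runs with the most peaks and the 5 longest empty stretches, and others with the reason given. No genome or annotation of WS180 was used here, so sequences, motifs and genes are not reported. The members, limits and measures were chosen with earlier results of these data known.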

Additional observations from a re-analysis of the deposited data

How the results depend on the processing

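The share of chromosome II peaks in the middle part was 39.4%, and it was 44.4% for strong peaks only and 41.8% counted by covered bases. It moved by less than its interval without peaks under 50 bp and with parts measured from the first peak. The strong share of 20.2% was 35.5% with the limit on q at 1e-05, 7.66% with the limit at 1e-20 and 22.4% without peaks under 50 bp. The median width of 233 bp was 259 bp without peaks under 50 bp and 444 bp in strong peaks. The share with a neighbour within 2 kb, 51.3%, was 26.9% within 1 kb, 77.9% within 5 kb, 55.5% between edges and 48.5% without peaks under 50 bp. The 19 runs of 5 or more became 2 with joining at 1 kb, 53 at 3 kb, 29 between edges and 13 without peaks under 50 bp. The 13 empty stretches became 41 at 40 kb or more and 20 without peaks under 50 bp. Each of these follows from the changed limit or set. The other joining rules for the left part were chosen after seeing the data. No paired analysis was possible because replicates are not listed apart, and for that reason no replicate could be left out. With depth unknown, it cannot be said how many weak peaks were missed.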

Other observations

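In windows of 100 kb, chromosome II had from 2 to 34 peaks, with a median of 12, against 0 to 31 with a median of 13 on the other 5 chromosomes. All windows and peaks named here were chosen after their values were seen. The fullest window, from 6800001 to 6900000, also had the most strong peaks of the chromosome, 17, against at most 11 in any window elsewhere. The window with the next most peaks, from 7800001 to 7900000, held 30 peaks and 5 strong ones. The emptiest windows, from 1600001 and from 1900001, held 2 peaks each and no strong one. None of the 152 windows of chromosome II was empty, and 21 of them, or 13.8%, had no strong peak, against 15.5% elsewhere. In windows of 500 kb the range on chromosome II was from 30 peaks, from 1500001 to 2000000, to 97 peaks, from 6500001 to 7000000. On the other 5 chromosomes it was from 18 to 99. The most strong peaks in a window of this size was 30 both on chromosome II and elsewhere.

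The second strongest peak of chromosome II began 585 bp after a run of 5 peaks that extended from 9054589 to 9059274. Its midpoint was 2073 bp from the nearest other midpoint because the peak is wide, so it counted as single under the 2-kb rule. The sixth strongest, 577 bp from its neighbour between edges, counted as single for the same reason.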
